A study of Mus musculus with 40 samples.

Results

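The loss of the glucocorticoid receptor (GR), the product of Nr3c1, was examined in astrocytes of the primary visual cortex (V1) of mice kept in darkness, by RNA-seq of sorted nuclei at postnatal day (P) 21. The comparison rested on 8 of the 40 libraries of the series, taken by their labels: 4 libraries of the group P21 DR GR-KO and 4 of the group P21 DR GR-Con, where DR stands for dark rearing. Replicates 1 to 4 of these groups are written KO1 to KO4 and Con1 to Con4. All of these mice were GRfl/fl, so that both groups carried the floxed receptor allele, and all had been injected at P0-P1 with an adeno-associated virus in which the promoter GfaABC1D drives expression in astrocytes. The vector was an AAV2/5 in which GfaABC1D-Cre, for GR-KO, or GfaABC1D-ΔCre, for GR-Con, was followed by EGFP-KASH and 4x6T, with a self-cleaving peptide in between. ΔCre is a catalytically inactive Cre. KASH anchors the fluorescent protein to the nuclear membrane, and GFP-positive nuclei were sorted for RNA. Each library came from a pool of 1 male and 1 female, and p-values below measure the spread between such pools. Active Cre and loss of GR came together in every GR-KO library and cannot be told apart. Groups set beside this one were P21 under normal rearing (NR) with 3 GR-KO and 3 GR-Con libraries, P14 DR with 3 and 3, P28 DR with 4 and 4, and the 3 P14 NR GR-Con libraries. Of 25239 genes in the table, 17106 passed the filter on low counts and were tested.

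GR is a nuclear receptor. In the absence of hormone it is held in the cytoplasm by chaperones, and binding of corticosterone, the main glucocorticoid of mice, sends it to the nucleus, where it acts on transcription at glucocorticoid response elements and together with other factors. Astrocytes of the cortex mature over the first postnatal weeks, when they couple through gap junctions, take up metabolic functions and switch off matrix and adhesion genes that are used earlier in development. Dark rearing withholds visual experience during this period, and the comparison asks which genes depend on astrocyte GR when no light has been seen.

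The P21 DR libraries held between 38176971 and 41532457 counts in GR-Con and between 42056623 and 49221787 in GR-KO, with 18380 to 19795 genes detected. Con2 had the most genes detected and stood furthest from its group, with an SD of 0.36 over genes on the log2 scale. This SD was 0.255 to 0.297 for the other 7 libraries. Levels are given as CPM, counts scaled to one library total after normalisation. The astrocyte label was matched by the marker genes. The summed level of 25 astrocyte identity genes was 25170 to 27520 CPM in GR-Con and 24370 to 28820 CPM in GR-KO. The sums over the 8 libraries were 4630 to 5536 for 19 neuronal and 84.09 to 112.5 for 13 microglial markers. Sums of 15 oligodendrocyte markers were 1263 to 1582 in GR-Con and 1074, 1142, 1175 and 1584 in GR-KO, with 14 of the 15 log2 fold changes below 0 (median -0.261). Over all genes tested 8852 log2 fold changes were below 0 and 8254 above it. Summed vascular and meningeal markers were lower in GR-KO in all libraries, 224.3 to 240.9 CPM against 242.8 to 255.3. Microglial markers were at 84.09 to 103.6 CPM in GR-KO and 102 to 112.5 in GR-Con, and oligodendrocyte precursor markers at 317.9 to 399.9 and 296 to 346.7. None of the 13 microglial, 15 oligodendrocyte or 9 oligodendrocyte precursor markers was called by edgeR or by DESeq2. At an unadjusted p below 0.05 there were 2 microglial and 1 oligodendrocyte marker lower, and 2 precursor markers higher and 3 lower. Without KO1 1 precursor marker was called lower. In bulk RNA, fewer cells of a type and less RNA per cell cannot be told apart.

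The count of Nr3c1 was taken over the whole gene, introns included, and is not a measure of the deletion. Its level was 240.2, 237, 230.1 and 209 CPM in Con1 to Con4 and 271, 272, 270.2 and 284 CPM in KO1 to KO4. The ranges did not overlap, and GR-KO was the higher (log2 fold change 0.26 ± 0.0814, adjusted p = 0.0473). The call did not hold in any of the 8 fits that omitted 1 library. Their adjusted p ran from 0.0571 (KO1 omitted) to 0.171 (Con4 omitted). At P21 NR the log2 fold change of Nr3c1 was 0.27 ± 0.0944, adjusted p = 0.0842. Nr3c2, which encodes the mineralocorticoid receptor, the other receptor for corticosterone, rose from 259 ± 18.96 to 381 ± 32.3 CPM (0.56 ± 0.153, adjusted p = 0.0194). Its adjusted p was 0.0775 without Con1 and 0.0743 without KO4. It was the 1 gene called among 18 receptor partner genes, a list that holds the receptor's chaperones, coactivators, corepressors and the enzymes that convert corticosterone. This share, 5.56% called higher, was near the 4.3% of all genes tested.

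Loss of GR in the dark changed 1142 of the 17106 genes tested (6.68%), of which 735 were higher (4.3%) and 407 lower (2.38%) in GR-KO. A gene was called at an adjusted p below 0.05 (edgeR quasi-likelihood test, Benjamini-Hochberg) with an absolute log2 fold change above 0.1. Reductions were larger than increases. The median log2 fold change was 0.474 among genes called higher and -0.617 among those called lower, and 108 of the lower genes (26.5%) but 58 of the higher genes (7.89%) differed by 2-fold or more. The 4 GR-KO libraries lay entirely above the 4 GR-Con libraries for 653 of the higher genes (88.8%) and entirely below them for 388 of the lower genes (95.3%). Over all genes tested 9.3% lay above, 6.83% below and 16.1% in either direction without overlap. The count of higher genes depended on single libraries, with 483 without Con1, 483 without KO2 and 416 without KO4. The total was 744 without KO4. The count of lower genes stayed between 319 and 433.

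**Figure D1:**
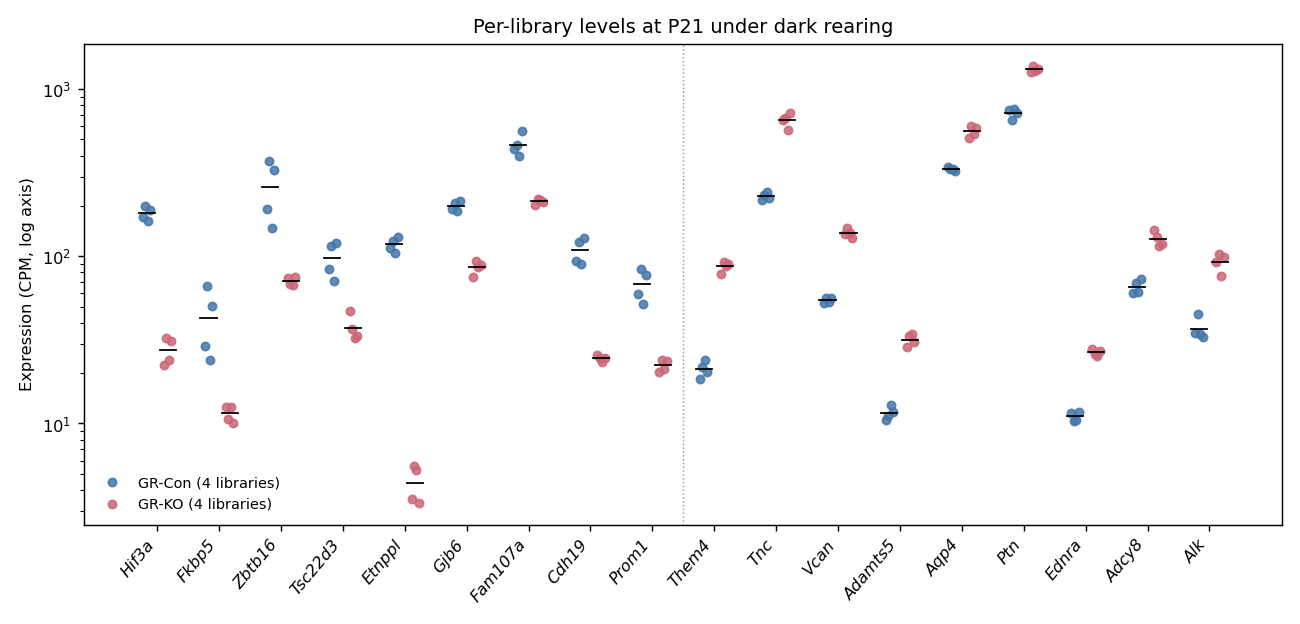
Expression of 18 genes in each P21 DR library, as CPM on a log axis, with blue points for the 4 GR-Con and red points for the 4 GR-KO libraries and a black line for the mean of each group. The 9 genes left of the dotted line were lower in GR-KO and the 9 right of it higher, and in none of them do the groups overlap.

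Genes that glucocorticoids are known to induce were lower in GR-KO. Of 24 such genes tested, 16 were called lower and 1 higher, where 2.38% of all genes were called lower and 4.3% higher. The median log2 fold change of the list was -0.698 against -0.01 over all genes. Hif3a (chromosome 7, 17030993 to 17062427, GRCm38), a member of the hypoxia-inducible factor family, was at 173, 199, 163 and 188 CPM in the GR-Con libraries and at 22.2, 32.5, 23.9 and 30.9 CPM in the GR-KO libraries. All GR-KO values were far below all GR-Con values (log2 fold change -2.72 ± 0.21, adjusted p = 2.27e-11, n = 4 and 4). Fkbp5 encodes a co-chaperone that lowers the affinity of GR for its hormone, and stood at 29.2, 66.5, 23.99 and 50.7 CPM in GR-Con and 12.5, 10.7, 12.6 and 10.1 CPM in GR-KO (-1.89 ± 0.325, adjusted p = 0.000126). Zbtb16, a zinc finger transcription factor gene, stood at 193, 372, 148 and 328 and 74.6, 68.2, 67.3 and 74.97 CPM (-1.87 ± 0.257, adjusted p = 3.54e-06). In both genes the GR-KO libraries lay close together while Con2 and Con4 stood well above Con1 and Con3, and the groups did not overlap. Tsc22d3, whose product GILZ carries anti-inflammatory effects of glucocorticoids, stood at 83.9, 115, 71.2 and 119.7 CPM in GR-Con and 46.97, 36.6, 32.4 and 33.5 CPM in GR-KO (-1.38 ± 0.163, adjusted p = 2.26e-07), again with the 2 highest values in Con2 and Con4.

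Among other members of the list, Sult1a1, a sulfotransferase gene, fell from 9.79 ± 1.34 to 3.01 ± 0.615 CPM (-1.70 ± 0.182, adjusted p = 2.97e-08) and Plin4, a lipid droplet coat gene, from 8.05 ± 1.63 to 3.95 ± 0.626 CPM (-1.03 ± 0.242, adjusted p = 0.0051). The inhibitor of NF-kappa-B gene Nfkbia fell from 18.6 ± 1.695 to 9.64 ± 0.729 CPM (-0.94 ± 0.145, adjusted p = 2.17e-05). The Krüppel-like factor genes Klf15 and Klf9 fell from 214 ± 5.71 to 127 ± 13.9 CPM (-0.75 ± 0.0956, adjusted p = 9.25e-07) and from 225 ± 26.9 to 134 ± 10.1 CPM (-0.75 ± 0.112, adjusted p = 1.42e-05), respectively. Metallothioneins bind zinc and copper, and Mt1 fell from 51.2 ± 7.48 to 30.6 ± 2.86 CPM (-0.74 ± 0.153, adjusted p = 0.00127). Pdk4, a kinase gene that restrains pyruvate dehydrogenase and that glucocorticoids induce in other tissues, was the member called higher, at 27.04, 28.6, 30.1 and 24.4 CPM in GR-Con and 39.5, 43.4, 49.9 and 46.2 CPM in GR-KO (0.70 ± 0.0993, adjusted p = 6.08e-06), without overlap. Of the 7 members that were not called, Sgk1, a kinase gene of ion transport, had a log2 fold change of -0.24 ± 0.162 (adjusted p = 0.434) and Dusp1, a phosphatase gene, -0.30 ± 0.192 (0.4).

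The promoters of the genes that fell were searched for response elements of GR and of nuclear factor I (NFI), a family of glial transcription factors. The windows ran from 250 bases before to 50 bases after each RefSeq start site (GRCm38.p6), and the motifs are palindromes, so that a match covers both strands. The full element, AGAACA and TGTTCT with any 3 bases between them, was found in 0 of 464 windows of genes called lower, 0 of 770 windows of genes called higher and 3 of all 32851 windows. Its core ACANNNTGT, which is contained in the full element, was found in 27 windows of lower genes (5.82%), 31 of higher genes (4.03%), 808 of the 16933 windows of genes tested (4.77%) and 2249 of all windows (6.85%). The full NFI element, TTGGC and GCCAA with any 5 bases between them, was found in 0 windows of lower and 1 of higher genes, and in 12 of all windows. These windows reach only a short way from the start site, and they say nothing of elements further out. The windows of Phyhd1, Fam107a and Map3k6, 3 genes that fell and that hold a match to the core, are shown 5′ to 3′ as examples, with the match in capitals.
Phyhd1, chr2:30265953-30266252, plus strand: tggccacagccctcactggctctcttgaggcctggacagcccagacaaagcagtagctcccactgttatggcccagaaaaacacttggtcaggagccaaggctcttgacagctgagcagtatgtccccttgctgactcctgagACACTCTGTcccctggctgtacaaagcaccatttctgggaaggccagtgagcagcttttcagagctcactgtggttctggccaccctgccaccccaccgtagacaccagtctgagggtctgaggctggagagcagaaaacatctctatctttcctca
Fam107a, chr14:8309730-8310029, minus strand: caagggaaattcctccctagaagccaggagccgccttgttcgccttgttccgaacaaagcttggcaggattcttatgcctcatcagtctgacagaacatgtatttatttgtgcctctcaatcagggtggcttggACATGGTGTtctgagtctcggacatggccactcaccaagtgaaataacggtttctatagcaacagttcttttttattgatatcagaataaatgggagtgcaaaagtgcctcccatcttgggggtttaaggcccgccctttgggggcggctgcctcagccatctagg
Map3k6, chr4:133240568-133240867, plus strand: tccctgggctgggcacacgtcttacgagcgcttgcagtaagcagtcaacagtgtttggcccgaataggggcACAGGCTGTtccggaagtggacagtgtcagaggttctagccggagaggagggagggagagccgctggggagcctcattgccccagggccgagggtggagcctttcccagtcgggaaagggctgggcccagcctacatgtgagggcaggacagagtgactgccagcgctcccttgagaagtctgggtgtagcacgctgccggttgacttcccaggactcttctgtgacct

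Phyhd1 (chromosome 2, 30266203 to 30282149), which encodes a dioxygenase related to phytanoyl-CoA hydroxylase, was at 86.2, 112, 104 and 98.3 CPM in GR-Con and 16.1, 25.8, 28.01 and 27.9 CPM in GR-KO (log2 fold change -2.04 ± 0.175, adjusted p = 3.01e-10). Its core match started at base 144 of the window, 107 bases before the start site. Fam107a (chromosome 14, 8296270 to 8317607) encodes an actin-binding protein and is a stress-responsive gene. It stood at 439, 461, 398 and 562 CPM in GR-Con and at 201, 220.3, 218 and 211 CPM in GR-KO (-1.13 ± 0.136, adjusted p = 3.1e-07), and its match lay 116 bases before the start site of its window, which is an internal start within the annotated gene. Map3k6, a kinase gene of stress signalling, was a low gene at 2.18, 2.94, 2.63 and 2.29 CPM in GR-Con and 1.04, 1.11, 0.646 and 0.79 CPM in GR-KO (-1.48 ± 0.411, adjusted p = 0.0209). Its call was lost without Con2 (adjusted p = 0.0572), KO3 (0.0722) or KO4 (0.0705), although the groups did not overlap.

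Markers of astrocyte maturation that the study itself named were all lower, and a list chosen by the study is not independent evidence of its direction. All 5 were called, where 2.38% of all genes tested were called lower. Etnppl (chromosome 3, 130617448 to 130635750), which encodes a phospho-lyase of phosphoethanolamine and marks mature astrocytes, had the largest reduction of the genes named here, from 113, 123, 105 and 131 CPM in GR-Con to 3.55, 5.54, 5.295 and 3.36 CPM in GR-KO (log2 fold change -4.73 ± 0.36, adjusted p = 1.82e-11). Gjb6 encodes connexin 30, one of the connexins through which astrocytes couple, and was at 192, 208, 188 and 214 CPM against 74.99, 94.004, 86.6 and 88.5 CPM (-1.22 ± 0.125, adjusted p = 1.3e-08). Neither gene showed overlap of the groups. Aldh1a1, a retinaldehyde dehydrogenase gene of which 42.2% lies under another annotated gene, fell from 93.4 ± 11.5 to 53.8 ± 6.69 CPM (-0.79 ± 0.157, adjusted p = 0.000794), and Ezr, whose product ezrin links membrane to actin in fine astrocyte processes, from 171 ± 19.2 to 102 ± 5.98 CPM (-0.75 ± 0.0903, adjusted p = 3.27e-07). Most astrocyte identity genes were not called: of 25 tested, 2 were lower (Aldoc and Glul) and 1 higher (Aqp4). These were 8% and 4% of the list, against 2.38% and 4.3% of all genes, and the median of the list was -0.0961. The counts of the list were 1 lower without Con1 or Con3 or KO1 or KO4 and 2 higher without KO1. Gja1, the gene of connexin 43, had a log2 fold change of 0.00077 ± 0.14 (adjusted p = 0.998), Sox9, a transcription factor gene of the lineage, 0.023 ± 0.0992 (0.916), and Aldh1l1, a folate enzyme gene used as a marker of astrocytes, -0.11 ± 0.134 (0.675).

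Channels and transporters split by gene. Of 20 gap junction and membrane channel genes 6 were lower and 3 higher (2.38% and 4.3% over all genes). Lrrc8a and Lrrc8c encode subunits of the volume-regulated anion channel, Lrrc8a, a member of the list, being the obligatory one. Lrrc8c, which lies outside the list with Kcng2 and Slc24a4, was at 126, 196, 86.001 and 184 CPM in GR-Con and 50.5, 47.5, 43.03 and 37.5 CPM in GR-KO (-1.73 ± 0.183, adjusted p = 2.5e-08), with Con2 and Con4 highest, and Lrrc8a at 82.8, 96.3, 80.99 and 98.7 and 47.8, 44.7, 42.7 and 41.8 CPM (-1.02 ± 0.104, adjusted p = 1.25e-08), with no overlap in either. The potassium channel gene Kcng2, whose product modifies other channels, fell from 8.79 ± 2.84 to 2.14 ± 0.692 CPM (-2.03 ± 0.324, adjusted p = 3.97e-05), whereas Kcnk2, the gene of a background potassium channel, rose from 88.4 ± 6.29 to 125 ± 10.4 CPM (0.51 ± 0.0858, adjusted p = 0.000105). Aqp4, the water channel gene of astrocyte endfeet, was at 343, 333, 333 and 324 CPM in GR-Con and 512, 598, 540.1 and 581 CPM in GR-KO (0.74 ± 0.0914, adjusted p = 4.83e-07), and every GR-KO library exceeded every GR-Con library. Gjb2, the gene of connexin 26, fell from 5.96 ± 0.69 to 3.84 ± 0.693 CPM (-0.63 ± 0.166, adjusted p = 0.013), a call lost without Con4 (0.0633) or KO4 (0.0867). Slc24a4, a sodium, calcium and potassium exchanger gene, fell from 76.9 ± 20.5 to 21.2 ± 1.82 CPM (-1.86 ± 0.194, adjusted p = 2.05e-08). All 5 called members of the 25 ion and organic solute transport genes rose, while 2 were lower at an unadjusted p below 0.05 and 1 was called lower by DESeq2. The higher count was 3 without Con1, Con2 or KO4. They included Slc30a10, a manganese exporter gene, from 70.9 ± 10.6 to 124 ± 20.5 CPM (0.81 ± 0.12, adjusted p = 1.27e-05). Slc13a3, a dicarboxylate transporter gene, rose from 19.3 ± 2.66 to 32.2 ± 5.36 CPM (0.74 ± 0.146, adjusted p = 0.000823), and the urea transporter gene Slc14a1, from 33.8 ± 0.462 to 52.4 ± 4.69 CPM (0.63 ± 0.0846, adjusted p = 2.17e-06).

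Among 24 glucose and glycogen genes 8 were called lower and 2 higher (2.38% and 4.3% over all genes), with a median log2 fold change of -0.0634. Gpt2, which interconverts pyruvate and alanine in mitochondria, was at 111, 141, 95.6 and 130.3 CPM in GR-Con and 48.99, 52.9, 52.4 and 49.5 CPM in GR-KO (log2 fold change -1.23 ± 0.136, adjusted p = 6.59e-08). Pygm, the muscle-type glycogen phosphorylase that astrocytes use to mobilise glycogen, was at 33.4, 31.2, 30.4 and 28.1 and 14.3, 15.1, 13.9 and 15.95 CPM (-1.05 ± 0.161, adjusted p = 1.93e-05), and Aldoc, the aldolase of brain, at 319.8, 288, 308 and 308 and 187, 189.5, 188 and 166 CPM (-0.74 ± 0.106, adjusted p = 6.89e-06). In all 3 genes the GR-KO libraries lay below the GR-Con libraries. Hexokinase 2 (Hk2) fell from 8.96 ± 1.15 to 6.23 ± 0.499 CPM (-0.52 ± 0.12, adjusted p = 0.00378) and the glucose transporter gene Slc2a1 from 50.5 ± 4.32 to 36.3 ± 3.28 CPM (-0.48 ± 0.0924, adjusted p = 0.000652). Slc2a1 is also strongly expressed in capillary endothelium, was the 1 gene called among 21 vascular and meningeal markers, and moved with the lower vascular sum given above. The part of those cells in its change was not tested. The 2 members that rose were Pdk4 and Pfkfb2, a regulator of glycolysis, from 90.3 ± 4.05 to 113 ± 11.9 CPM (0.33 ± 0.0792, adjusted p = 0.00693).

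Lipid genes with the largest changes included both signs, where 4.3% of all genes tested were called higher and 2.38% lower. Them4 (chromosome 3, 94310132 to 94332540), a thioesterase gene of long-chain acyl-CoA, rose most among the genes named here, from 18.3, 21.8, 23.9 and 20.3 CPM in GR-Con to 78.4, 92.7, 86.9 and 89.9 CPM in GR-KO (log2 fold change 2.04 ± 0.0942, adjusted p = 1.77e-17), and was the member called higher among 35 phospholipid and fatty acid genes (2 without KO1). The groups were far apart. The 4 members called lower included Etnppl, Pla2g3, a secreted phospholipase gene, from 9.86 ± 1.6002 to 3.11 ± 0.372 CPM (-1.66 ± 0.15, adjusted p = 8.54e-10), and Acsl3, an acyl-CoA synthetase gene, from 767 ± 94.2 to 523 ± 43.2 CPM (-0.55 ± 0.126, adjusted p = 0.0038). Pla2g3 has 45.4% of its length under another annotated gene. Mfsd2a, which carries lysophospholipids with omega-3 fatty acids into the brain, fell from 34.1 ± 7.27 to 9.56 ± 1.01 CPM (-1.83 ± 0.186, adjusted p = 1.25e-08). Cholesterol genes had a median log2 fold change of 0.249, with 18 of 23 above 0, against 8254 of all 17106 genes tested. But 1 of the 23 was called, the efflux transporter gene Abca1, from 442 ± 21.2 to 593 ± 102 CPM (0.42 ± 0.108, adjusted p = 0.0106), and it was not called without KO4 (adjusted p = 0.0917). No cholesterol gene was called lower in edgeR, 1 in DESeq2 and 1 without KO1. When the 8 P21 DR libraries were fitted alone 11 were called higher.

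Amino acid genes changed in both directions. Of 25 glutamate, GABA and amino acid transport genes 2 were higher and 3 lower (4.3% and 2.38% over all genes), the lower count being 1 without Con1 or KO4. Slc7a11 exports glutamate in exchange for cystine and rose from 412 ± 20.05 to 686 ± 46.9 CPM (0.74 ± 0.127, adjusted p = 0.000131), and Phgdh, the first enzyme of serine synthesis, rose from 81.2 ± 7.397 to 119 ± 14.7 CPM (0.55 ± 0.102, adjusted p = 0.000393). Glul, glutamine synthetase, fell from 645 ± 19.3 to 534 ± 39.9 CPM (-0.27 ± 0.0788, adjusted p = 0.0277). This small change was not called without Con1 (0.0733), Con3 (0.0731), KO1 (0.0881) or KO4 (0.0552).

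**Figure D2:**
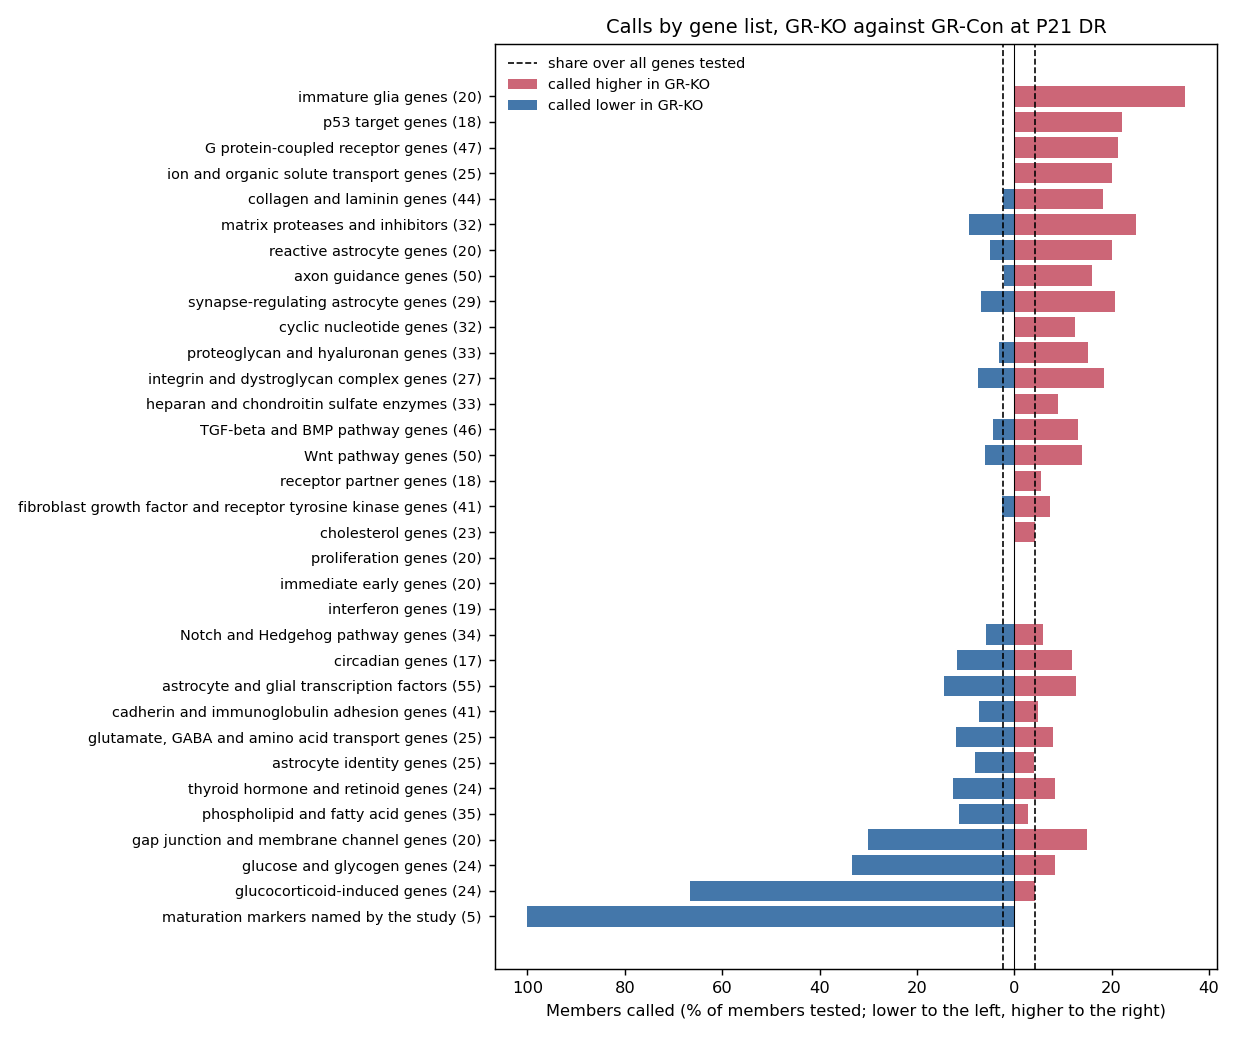
Share of the tested members of each gene list called higher (red, to the right) or lower (blue, to the left) in GR-KO at P21 DR, in percent, with the number of members tested in parentheses and dashed lines at the shares over all genes tested, 4.3% higher and 2.38% lower. Maturation markers (100% lower) and glucocorticoid-induced genes (66.7% lower) stand at one end and immature glia genes (35% higher) at the other. The lists were chosen with earlier results of these data known.

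Of 20 genes of immature glia 7 were called higher and 0 lower, by edgeR and by DESeq2, where edgeR called 4.3% of all genes higher and 2.38% lower. At an unadjusted p below 0.05 1 was lower, and the median was 0.0675. Tnc (chromosome 4, 63959785 to 64047015), tenascin C, a matrix glycoprotein of developing and injured brain, was at 216, 234, 243 and 225 CPM in GR-Con and 651, 673, 566 and 719 CPM in GR-KO (log2 fold change 1.51 ± 0.112, adjusted p = 1.11e-11). Vcan (chromosome 13, 89655309 to 89743027), the chondroitin sulfate proteoglycan versican, was at 52.3, 56.6, 53.3 and 56.2 CPM in GR-Con and 135, 148, 138 and 128 CPM in GR-KO (1.33 ± 0.074, adjusted p = 3.75e-15). Both genes were separated by group in all 8 libraries, and the study had named both as raised in GR-KO. Fabp7, a fatty acid-binding protein of radial glia, rose from 17.1 ± 1.3999 to 38.9 ± 2.94 CPM (1.19 ± 0.16, adjusted p = 2.49e-06), and Hopx, a homeodomain protein gene of radial glia and astrocytes, from 26.9 ± 1.15 to 52.6 ± 4.21 CPM (0.97 ± 0.113, adjusted p = 1.74e-07). Among the members that did not pass the test, Vim, the vimentin gene, had a log2 fold change of -0.17 ± 0.145 (adjusted p = 0.535), Sox11, a gene of neural precursors, 0.14 ± 0.152 (0.623) and Dcx, a gene of young neurons, -0.17 ± 0.187 (0.638).

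Matrix genes were higher in many cases and lower in a few. Among 33 proteoglycan and hyaluronan genes 5 were higher and 1 lower (4.3% and 2.38% over all genes). Besides Tnc and Vcan, the hyaluronan receptor gene Cd44 rose from 24.6 ± 1.71 to 39.3 ± 4.58 CPM (0.68 ± 0.123, adjusted p = 0.000256). The link protein gene Hapln1, which joins hyaluronan and proteoglycans in perineuronal nets, rose from 137 ± 15.1 to 176 ± 3.35 CPM (0.36 ± 0.0715, adjusted p = 0.000785), while Sdc4, a membrane heparan sulfate proteoglycan gene, fell from 173 ± 14.2 to 102 ± 5.71 CPM (-0.76 ± 0.124, adjusted p = 5.38e-05). Of 33 genes listed as enzymes of heparan and chondroitin sulfate 3 were called higher and 0 lower in edgeR. In DESeq2 4 were higher and 0 lower, and 2 were lower at an unadjusted p below 0.05. Chst3, a chondroitin 6-O-sulfotransferase gene, was among those called higher, from 7.55 ± 0.869 to 11.4 ± 1.86 CPM (0.59 ± 0.138, adjusted p = 0.00505), with Chst9, which sulfates N-acetylgalactosamine, from 29.4 ± 3.52 to 60.5 ± 8.31 CPM (1.04 ± 0.207, adjusted p = 0.000852). The remaining edgeR call was Galnt15, a polypeptide N-acetylgalactosaminyltransferase gene and not an enzyme of these chains.

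Matrix proteases and their inhibitors were called most often among the matrix lists, with 8 of 32 higher and 3 lower (4.3% and 2.38% over all genes). The study had named Adamts5, Adamts9, Adamts12, Adamts16, Mmp2 and Mmp14 as raised in GR-KO. Their calls are therefore not independent evidence of that direction. Adamts5, which cleaves versican and related proteoglycans, was at 10.6, 11.1, 12.8 and 11.8 CPM in GR-Con and 28.7, 33.3, 34.3 and 30.8 CPM in GR-KO (1.46 ± 0.108, adjusted p = 1.11e-11), with no overlap. Mmp2, a gelatinase gene, rose from 3.08 ± 0.439 to 8.36 ± 2.66 CPM (1.44 ± 0.286, adjusted p = 0.000842) and Mmp14, the membrane protease that activates it, from 22.3 ± 1.47 to 37.8 ± 2.46 CPM (0.76 ± 0.0935, adjusted p = 4.52e-07). Adamts16, Adamts12 and Adamts9 rose with log2 fold changes of 1.05 ± 0.14, 1.01 ± 0.163 and 0.94 ± 0.142. Adamts20, a relative of Adamts9, went the other way, from 96.9 ± 24.4 to 42.8 ± 4.69 CPM (-1.18 ± 0.207, adjusted p = 0.000165), and so did Htra1, a secreted serine protease gene, from 719 ± 97.8 to 445 ± 23.4 CPM (-0.69 ± 0.13, adjusted p = 0.000393). Reck, a membrane inhibitor of matrix metalloproteinases, fell from 82.3 ± 2.88 to 57.8 ± 10.2 CPM (-0.51 ± 0.14, adjusted p = 0.0191), a call lost without KO1 (adjusted p = 0.077).

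Of 44 collagen and laminin genes 8 were called higher and 1 lower (4.3% and 2.38% over all genes). The higher count was 4 without Con1, Con4 or KO4, and 5 without KO2, and the lower count was 2 without KO1. Nid2, a basement membrane linker gene, was at 19.3, 21.6, 23.2 and 22.9 CPM in GR-Con and 39.9, 47.6, 43.8 and 54.1 CPM in GR-KO (1.09 ± 0.0857, adjusted p = 3.3e-11). Col27a1, a fibrillar collagen gene, rose from 16.5 ± 1.02 to 28.9 ± 0.592 CPM (0.81 ± 0.146, adjusted p = 0.000246) and the laminin gene Lama3 from 47.03 ± 5.44 to 88.7 ± 18.8 CPM (0.91 ± 0.197, adjusted p = 0.00208), while the collagen gene Col5a3 fell from 9.94 ± 1.03 to 4.43 ± 1.25 CPM (-1.17 ± 0.188, adjusted p = 4.58e-05). Among genes of the dystrophin complex, which anchors Aqp4 at endfeet, Sntb1, a syntrophin, rose from 40.5 ± 5.87 to 83.99 ± 5.37 CPM (1.05 ± 0.146, adjusted p = 4.31e-06). Utrn, utrophin, rose from 419 ± 7.21 to 598 ± 35.7 CPM (0.51 ± 0.0945, adjusted p = 0.000313), and Dmd, dystrophin, from 658 ± 40.7 to 900.3 ± 58.1 CPM (0.45 ± 0.105, adjusted p = 0.00476). In all, 5 of 27 integrin and dystroglycan complex genes were higher and 2 lower. The higher count was 3 without KO4 and the lower count 1 without Con2 or KO2, KO3 or KO4. Itgav, the alpha V integrin gene, fell from 168 ± 12.3 to 117 ± 3.12 CPM (-0.52 ± 0.0825, adjusted p = 3.54e-05).

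Among 41 cadherin and immunoglobulin adhesion genes 3 were lower, and 2 were higher, or 1 without Con1, Con3 or Con4 or KO2 or KO4. The shares were 7.32% lower and 4.88% higher, against 2.38% and 4.3% of all genes tested. Cdh19, an adhesion gene of the cadherin family, was at 93.2, 122, 90.03 and 128 CPM in GR-Con and 25.6, 24.7, 23.3 and 24.7 CPM in GR-KO (log2 fold change -2.14 ± 0.19, adjusted p = 5.92e-10), and Prom1, prominin 1, a gene of membrane protrusions, at 59.2, 84.4, 51.6 and 77.04 and 20.3, 24.02, 21.1 and 23.8 CPM (-1.61 ± 0.148, adjusted p = 1.19e-09). The 4 GR-KO libraries of each gene spanned a narrow range below all GR-Con libraries. Cntn1, contactin 1, an adhesion molecule of the immunoglobulin superfamily, fell from 359.9 ± 14.2 to 215 ± 30.1 CPM (-0.74 ± 0.112, adjusted p = 1.45e-05). The study had named Prom1 and Cntn1 as lower in GR-KO. Ncam2, a neural cell adhesion molecule gene, rose from 264 ± 13.9 to 376 ± 21.6 CPM (0.51 ± 0.125, adjusted p = 0.00789).

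Of 50 axon guidance genes 8 were called higher and 1 lower (4.3% and 2.38% over all genes), and the median log2 fold change was 0.0251. The netrin receptor gene Unc5c rose from 215 ± 23.6 to 365 ± 41.9 CPM (0.77 ± 0.138, adjusted p = 0.000238). The semaphorin genes Sema6d and Sema6a rose from 628 ± 40.03 to 1039 ± 96.8 CPM (0.73 ± 0.161, adjusted p = 0.0028) and from 152 ± 7.74 to 225 ± 10.99 CPM (0.57 ± 0.082, adjusted p = 7.82e-06), and the ephrin receptor gene Ephb1 from 411 ± 45.4 to 649.7 ± 64.96 CPM (0.66 ± 0.164, adjusted p = 0.00854). Sema4b fell from 115 ± 10.9 to 90.7 ± 4.68 CPM (-0.34 ± 0.0793, adjusted p = 0.00418). Among 29 genes through which astrocytes act on synapses 6 were higher and 2 lower. Sparc, a matrix protein that antagonises synapse formation, was at 66.9, 78.6, 66.3 and 77.1 CPM in GR-Con and 31.7, 26.3, 28.8 and 20.6 CPM in GR-KO (-1.43 ± 0.149, adjusted p = 1.89e-08), without overlap. Mertk, the receptor by which astrocytes engulf synapses, fell from 1037 ± 45.9 to 696 ± 83.8 CPM (-0.57 ± 0.147, adjusted p = 0.011). Il33, a cytokine that drives synapse engulfment by microglia, rose from 18.5 ± 0.281 to 28.2 ± 4.099 CPM (0.61 ± 0.126, adjusted p = 0.00136), and Chrdl1, which promotes the maturation of glutamatergic synapses, from 56.02 ± 4.68 to 75.7 ± 7.81 CPM (0.43 ± 0.108, adjusted p = 0.00904).

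Of 47 receptors that couple to G proteins 10 were higher and 0 lower in edgeR, 11 higher and 0 lower in DESeq2, and 2 were lower at an unadjusted p below 0.05. In edgeR 4.3% of all genes tested were higher and 2.38% lower. Without KO1 1 was called lower. The endothelin receptor genes Ednra and Ednrb were at 11.5, 10.3, 10.5 and 11.7 CPM and 89.4, 75.03, 80.99 and 81.5 CPM in the GR-Con libraries. In GR-KO they were at 27.8, 26.005, 25.4 and 27.2 CPM and 146, 133, 129 and 123 CPM, with log2 fold changes of 1.27 ± 0.107 (adjusted p = 1.71e-10) and 0.70 ± 0.103 (1.07e-05), and neither gene had overlapping groups. Vipr2, a receptor gene for vasoactive intestinal peptide and PACAP, rose from 3.31 ± 0.649 to 7.57 ± 1.43 CPM (1.19 ± 0.19, adjusted p = 3.97e-05). The adrenergic receptor gene Adra1b rose from 10.9 ± 1.74 to 15.9 ± 0.997 CPM (0.55 ± 0.123, adjusted p = 0.00306), and Lgr4, an R-spondin receptor gene, from 177 ± 4.29 to 265 ± 13.7 CPM (0.58 ± 0.104, adjusted p = 0.000203). Among 32 cyclic nucleotide genes 4 were higher and 0 lower (1 at an unadjusted p below 0.05 and 0 in DESeq2), and the higher count was 2 without KO4. Adcy8 and Adcy2 encode adenylyl cyclases, which make cyclic AMP downstream of such receptors. Adcy8 was at 60.2, 69.3, 60.7 and 72.97 CPM in GR-Con and 144, 129.98, 114 and 119 CPM in GR-KO (0.95 ± 0.107, adjusted p = 9.99e-08), and Adcy2 rose from 511 ± 27.96 to 862 ± 92.7 CPM (0.75 ± 0.126, adjusted p = 8.13e-05).

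Growth factor pathways held calls of both signs, where 4.3% of all genes tested were called higher and 2.38% lower. Notch and Hedgehog genes called higher (5.88%) and fibroblast growth factor and receptor tyrosine kinase genes called lower (2.44%) were near these shares. Of 46 TGF-beta and BMP pathway genes 6 were higher in edgeR and 11 in DESeq2, with 15 at an unadjusted p below 0.05. The lower count was 2, or 1 without Con2, Con4 or KO4. Ltbp1, which binds latent TGF-beta to the matrix, rose from 95.7 ± 4.59996 to 145 ± 4.64 CPM (0.60 ± 0.0859, adjusted p = 7.57e-06), and the receptor gene Tgfbr2 from 25.4 ± 1.69 to 33.1 ± 1.94 CPM (0.38 ± 0.0892, adjusted p = 0.00525), whereas the BMP-family ligand gene Gdf10 fell from 9.15 ± 1.09 to 4.095 ± 0.878 CPM (-1.16 ± 0.165, adjusted p = 6.12e-06). Of 50 Wnt pathway genes 7 were higher, or 4 without Con1, Con3, KO2 or KO4, and 3 were lower. The frizzled receptor genes took different directions. Fzd6 rose from 15.5 ± 2.49 to 25.3 ± 4.67 CPM (0.71 ± 0.131, adjusted p = 0.000347), and Fzd2 and Fzd1 fell from 11.3 ± 0.9 to 5.79 ± 0.834 CPM (-0.96 ± 0.178, adjusted p = 0.000322) and from 13.7 ± 0.887 to 8.84 ± 0.63 CPM (-0.64 ± 0.144, adjusted p = 0.00337). The ligand gene Wnt7a rose from 65.3 ± 7.97 to 97.9 ± 9.54 CPM (0.58 ± 0.13, adjusted p = 0.0028). Of 34 Notch and Hedgehog pathway genes 2 were higher, or 1 without Con1, Con3 or Con4 or KO2 or KO4, and 2 lower. The receptor gene Notch3 rose from 20.2 ± 0.8 to 34.6 ± 4.31 CPM (0.78 ± 0.13, adjusted p = 8.25e-05), and Lfng, a glycosyltransferase that tunes Notch to its ligands, and Hey2, a target of Notch, fell with log2 fold changes of -0.61 ± 0.111 (adjusted p = 0.000258) and -0.54 ± 0.113 (0.00141). Spry1, an inhibitor of receptor tyrosine kinase signalling, rose from 4.96 ± 0.15 to 10.4 ± 0.75 CPM (1.07 ± 0.222, adjusted p = 0.00137) and the epidermal growth factor receptor gene Egfr from 326 ± 20.1 to 457 ± 15.1 CPM (0.49 ± 0.123, adjusted p = 0.00931), 2 of the 3 called higher among 41 genes of such receptors and fibroblast growth factors, where 1 was lower. Alk, a receptor tyrosine kinase gene outside the lists, was at 34.6, 45.1, 34.3 and 32.8 CPM in GR-Con and 92.9, 103, 76.4 and 99.3 CPM in GR-KO (1.34 ± 0.156, adjusted p = 1.62e-07), all GR-KO libraries lying above all GR-Con libraries.

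Transcription factors of astrocytes were called in both directions, with 7 of 55 higher and 8 lower (4.3% and 2.38% over all genes). The higher count was 4 without Con1 and 3 without Con4 or KO4. Apart from Hif3a, Zbtb16, Tsc22d3, Klf15 and Klf9, the lower genes included Tfcp2l1, a grainyhead-like factor gene, from 24.8 ± 2.53 to 8.78 ± 2.05 CPM (-1.50 ± 0.211, adjusted p = 5.43e-06). Pparg, a nuclear receptor gene of lipid metabolism, rose from 10.2 ± 0.77 to 17.4 ± 0.77 CPM (0.77 ± 0.194, adjusted p = 0.00974). Of 24 thyroid hormone and retinoid genes 2 were higher, or 1 without Con1 or Con2 or KO4, and 3 lower. Rxra, the retinoid X receptor alpha gene, whose product pairs with PPAR-gamma and thyroid receptors, fell from 53.7 ± 9.62 to 28.9 ± 2.08 CPM (-0.89 ± 0.127, adjusted p = 6.12e-06). Of 17 circadian genes 2 were lower and 2 higher, or 1 higher without Con2, Con3 or Con4 or KO2, KO3 or KO4. Npas2, an activator of the clock, fell from 361 ± 44.4 to 217 ± 15.01 CPM (-0.73 ± 0.143, adjusted p = 0.00072) and Per1, a repressor that glucocorticoids induce, from 80.1 ± 10.3 to 49.3 ± 2.02 CPM (-0.70 ± 0.145, adjusted p = 0.00129), while Arntl, the partner of Npas2, rose from 112 ± 3.76 to 147 ± 9.13 CPM (0.39 ± 0.0914, adjusted p = 0.00478). Per the study's methods, mice for all genomic experiments were collected in the same window of the day, to control for circadian rhythm. Times within this window were not used here.

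Several large changes lay outside the lists. Nrros, which tethers latent TGF-beta and is best known in microglia, was at 17.6, 21.4, 12.8 and 24.3 CPM in GR-Con and 2.91, 2.88, 3.87 and 3.21 CPM in GR-KO (-2.56 ± 0.276, adjusted p = 3.49e-08). Microglial markers were also lower in GR-KO in 12 of 13 genes, with none called, and their part in the change of Nrros was not tested. Ccnd3, cyclin D3, fell from 86.2 ± 23.03 to 23.7 ± 2.47 CPM (-1.86 ± 0.205, adjusted p = 5.65e-08). Lncbate1, a long noncoding RNA whose annotated span lies entirely under another gene, fell from 6.398 ± 2.85 to 0.679 ± 0.226 CPM (-3.24 ± 0.434, adjusted p = 2.34e-06). Upwards, Igsf1, an immunoglobulin superfamily membrane protein gene, rose from 1.58 ± 0.496 to 5.25 ± 0.465 CPM (1.74 ± 0.248, adjusted p = 6.85e-06). Myo3b, a class III myosin gene, rose from 15.7 ± 2.85 to 36.3 ± 7.32 CPM (1.21 ± 0.135, adjusted p = 8.36e-08). S100a10, which unlike the others here belongs to a list, that of reactive astrocyte genes, carries membrane proteins to the cell surface together with annexin A2. It rose from 5.99 ± 0.83 to 15.4 ± 0.911 CPM (1.36 ± 0.185, adjusted p = 2.79e-06). Gucy2f and Rpe65, known from the retina as a guanylate cyclase and as the isomerase of the visual cycle, were low but higher in GR-KO, from 4.95 ± 0.898 to 14.3 ± 3.56 CPM (1.53 ± 0.225, adjusted p = 1.07e-05) and from 6.705 ± 1.27 to 17.4 ± 1.75 CPM (1.37 ± 0.196, adjusted p = 6.85e-06). In Rpe65 the GR-Con libraries read 6.21, 5.49, 6.64 and 8.48 CPM and the GR-KO libraries 15.8, 17.4, 16.6 and 19.8 CPM, without overlap.

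No immediate early gene of 20, no interferon gene of 19 and no proliferation gene of 20 was called by edgeR or DESeq2, and 0 of them had an unadjusted p below 0.05. Without Con1 1 proliferation gene was called higher. Of the immediate early genes, which neuronal activity induces, 18 of 20 had a log2 fold change below 0 (median -0.274), against 8852 of all 17106 genes tested. The largest reduction among them, in Maff, had an adjusted p of 0.411. Neuronal markers had a similar median (-0.25), with 18 of 19 below 0 and 1 called higher, Rorb, a nuclear receptor gene also counted among the transcription factors (0 called without Con1 or Con4 or KO4). Of 20 reactive astrocyte genes 4 were higher (S100a10, Aspg, Cd44 and Osmr) and 1 lower, the higher count being 2 without Con1, Con4 or KO4. Over all genes tested 4.3% were called higher and 2.38% lower. Gfap, the defining gene of reactive astrocytes, had a log2 fold change of 0.30 ± 0.105 (adjusted p = 0.0856), and Amigo2 fell from 8.897 ± 0.708 to 4.24 ± 0.857 CPM (-1.07 ± 0.16, adjusted p = 1.44e-05). Of 18 p53 target genes 4 were higher and 0 lower (2 at an unadjusted p below 0.05, 0 in DESeq2 and 1 without KO1), and the higher count was 1 without KO4 and 2 without Con2, Con3 or Con4. The canonical target Cdkn1a had a log2 fold change of 0.36 ± 0.236 (0.413) and Mdm2 of 0.15 ± 0.0842 (0.332). Of 20 ependymal and choroid plexus markers 2 were higher, or 0 without Con1, Con3, Con4 or KO4 and 1 without Con2 or KO2 or KO3, and 2 were lower, or 4 without KO3. Ttr, the transthyretin gene of choroid plexus, read 0.917, 0.358, 2.86 and 63.2 CPM in GR-Con and 0.326, 0.774, 1.14 and 1.31 CPM in GR-KO. Its call as lower rested on Con4, without which the adjusted p was 0.727 and the count of lower markers 1. The other was Tekt4, a gene of cilia, from 4.62 ± 0.957 to 0.733 ± 0.202 CPM (-2.65 ± 0.398, adjusted p = 1.48e-05), with no overlap.

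Genes that rose in GR-KO were long. Their median length was 71.4 kb against 24.1 kb for all genes tested and 29.4 kb for the genes that fell, and 291 of 734 (39.6%) spanned 100 kb or more, against 14.3% of all genes. From the shortest to the longest quintile of genes the share called higher went from 1.17% to 10.5%, while the share called lower stayed between 1.96% and 2.69%. The median log2 fold change of a quintile went from -0.0963 to 0.0703. Libraries also differed in how their levels moved with gene length, by -0.155 to 0.0485 log2 units per 10-fold length in GR-Con and -0.0359 to 0.0431 in GR-KO, with Con2 the highest of all and the other GR-Con libraries below every GR-KO library. With this slope as a covariate 849 genes were called higher and 556 lower, and their medians were 77.42 and 44.04 kb. The part of the length slope in the calls was not tested further. The length slopes at P21 NR ran from -0.0423 to 0.0601 in GR-Con and from -0.0153 to 0.174 in GR-KO.

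**Figure D3:**
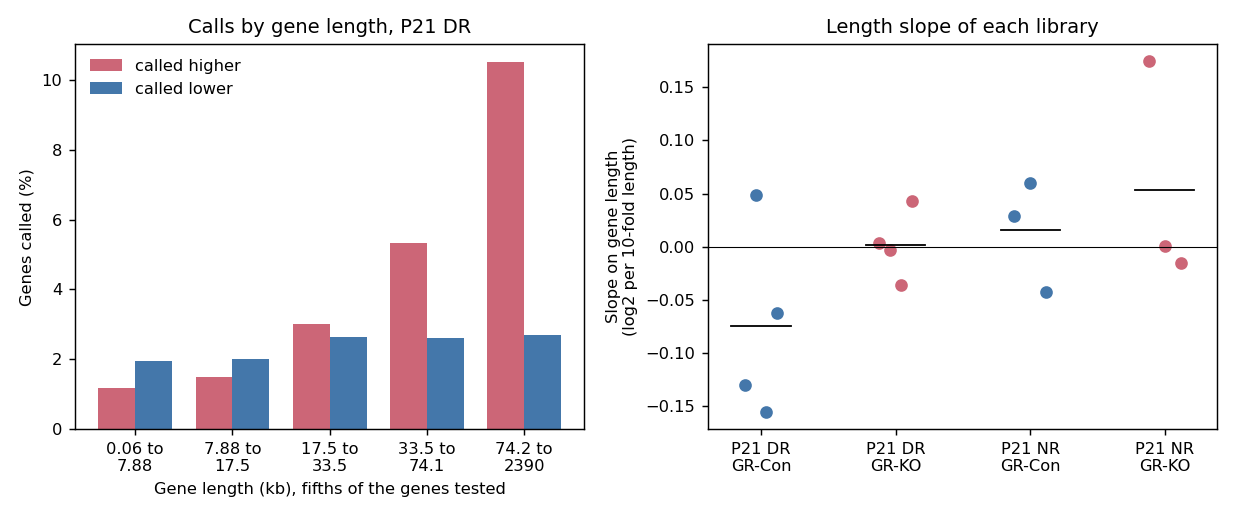
Left, percent of genes called higher (red) or lower (blue) in GR-KO at P21 DR in each quintile of the tested genes by length in kb. Right, the slope of each P21 library's deviation from the mean of all libraries on gene length, in log2 units per 10-fold length, one point per library and a black line for the group mean. Calls higher climb from 1.17% to 10.5% with length, and 3 of 4 GR-Con libraries in the dark have slopes below those of all GR-KO libraries.

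The same loss in mice raised with light, measured in libraries that share no sample with the dark comparison, called many of the same genes. All contrasts came from the same fit and share each gene's estimate of spread, so that their calls are not fully independent. At P21 NR 7.23% of all genes were called. Of the 735 genes called higher in the dark 425 were also called higher at P21 NR (57.8% of the dark list and 53.3% of the 798 of the light list, where 4.67% of all genes were called), and of the 407 called lower 280 were also called lower (68.8% and 63.8% of 439, against 2.57%). The sign was shared by 731 of the higher (99.5%) and 387 of the lower genes (95.1%). The share of all genes tested with the same sign in both contrasts was not computed, here or for P14 and P28. The glucocorticoid-induced list had 16 genes lower and 2 higher and a median of -0.759 in the light, against 16 lower, 1 higher and -0.698 in the dark. Counts of calls and medians were unlike for the interferon list and for the ependymal and choroid plexus list. The interaction of rearing and genotype, described below, called 0 members of either list in edgeR, while DESeq2 called Ttr. These counts therefore do not show that the effect depended on rearing. Of 19 interferon genes 7 were called higher in the light (median 1.09) and 0 in the dark (0.0267). Their values in single libraries are not given here. Of 20 ependymal and choroid plexus markers 8 were higher and 1 lower in the light (median 1.63), against 2 and 2 in the dark (0.0981). Their sum was 240.2 CPM in P21 NR GR-KO replicate 1 and 42.55 to 81.81 CPM in the other P21 NR libraries. The 1 gene called in opposite directions was Ttr. Hif3a had log2 fold changes of -2.72 in the dark and -3.12 in the light, Etnppl -4.73 and -5.11, Them4 2.04 and 1.99, and Tnc 1.51 and 1.47.

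Whether the loss acted differently in the dark was tested by the interaction of rearing and genotype at P21. No gene passed at an adjusted p below 0.05 in edgeR (the smallest was 0.112, and 765 genes had an unadjusted p below 0.05), and DESeq2 gave 2, Ttr and Nek10, a kinase gene. The edgeR count was 1 without Con1 or Con2 and 2 without P21 NR GR-KO replicate 3. For Fkbp5 the effect in the dark minus that in the light was 0.82 ± 0.493 on the log2 scale (adjusted p = 1), for Zbtb16 0.72 ± 0.381 (1), for Hif3a 0.40 ± 0.307 (1), for Tnc 0.041 ± 0.167 and for Vcan 0.16 ± 0.112. Fkbp5 in the light fell from 82.9 ± 31.6 to 12.6 ± 5.83 CPM (n = 3 and 3). The P21 NR libraries held 17240294 to 28137389 counts, fewer than every P21 DR library. The absence of calls does not show that the effects were equal.

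**Figure D4:**
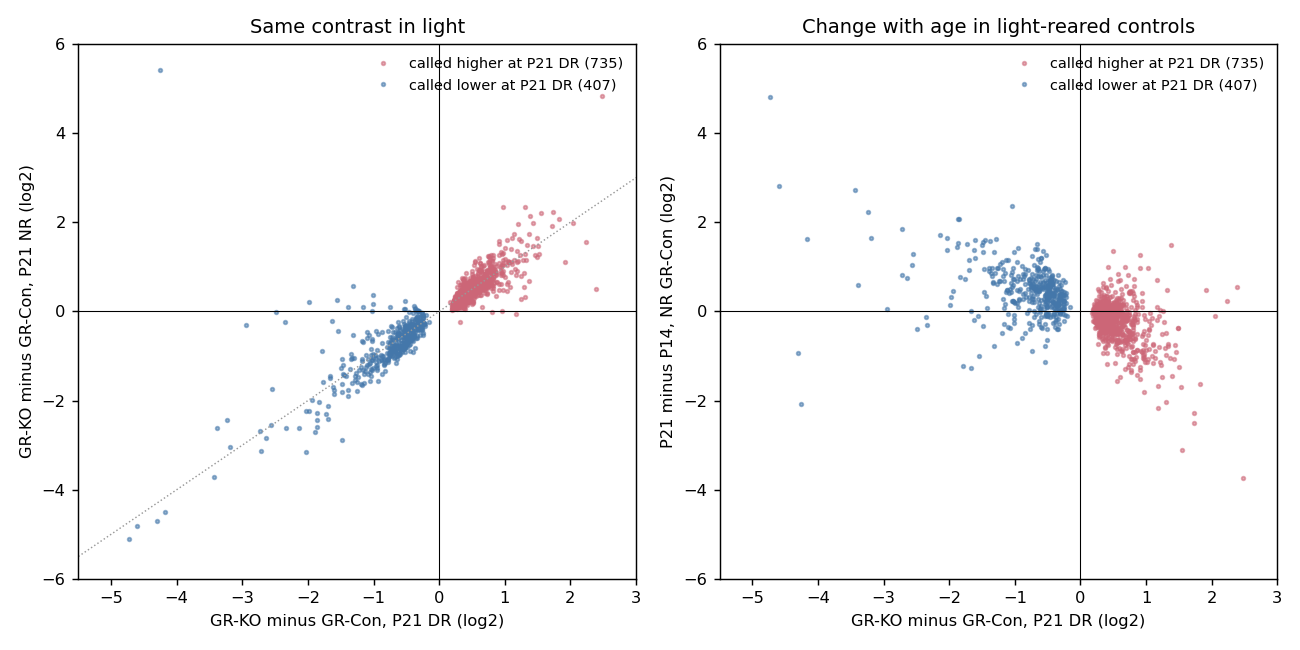
Log2 fold change of GR-KO against GR-Con at P21 DR (horizontal) for the 735 genes called higher (red) and the 407 called lower (blue), against the same contrast at P21 NR (left, with the line of equal values dotted) and against the change from P14 to P21 in NR GR-Con libraries (right). On the left 99.5% of higher and 95.1% of lower genes keep their sign and the isolated point at the upper left is Ttr, while on the right most genes called lower lie above 0.

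At P14 in the dark fewer genes were called, with 3 libraries in each group. Of 17106 genes 0.0351% were called higher and 0.24% lower at P14 DR, and all 6 of the former and all 41 of the latter were called in the same direction at P21 DR. The median log2 fold change at P14 of the genes called at P21 was 0.104 for the higher and -0.332 for the lower genes, and 611 of the higher (83.1%) and 374 of the lower genes (91.9%) had the same sign at P14. At P28 DR 128 of 174 genes called higher (73.6%, or 17.4% of the P21 list) and 230 of 312 called lower (73.7%, or 56.5%) were called so at P21, where 1.02% and 1.82% of all genes were called at P28. The P28 medians of the P21 genes were 0.185 and -0.466, and 656 (89.3%) and 377 (92.6%) had the same sign.

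The effect of GR loss differed between P14 and P21 in the dark for 16 genes (0.0935% of those tested), 12 with a higher (0.0702%) and 4 with a lower effect (0.0234%) at P21. Them4 rose by 0.60 ± 0.106 at P14 and by 2.04 ± 0.0942 at P21 on the log2 scale, a difference of 1.45 ± 0.14, adjusted p = 7.44e-08. Vcan rose by 0.42 ± 0.0841 and 1.33 ± 0.074 (difference 0.90 ± 0.111, adjusted p = 1.41e-05), Adamts5 by 0.25 ± 0.12 and 1.46 ± 0.108 (1.20 ± 0.161, adjusted p = 5.9e-05), and Tnc by 0.44 ± 0.126 and 1.51 ± 0.112 (1.06 ± 0.168, adjusted p = 0.000971), of which the P14 values of Adamts5 and Tnc did not pass the test. In GR-Con, Tnc stood at 615 ± 29.4 CPM at P14 and 229 ± 11.6 CPM at P21, and in GR-KO at 836 ± 129 and 652 ± 64.3 CPM. Nid2 differed by 0.89 ± 0.129, adjusted p = 0.000251. Ptn, the heparin-binding growth factor pleiotrophin, rose at P21 from 722 ± 46.2 to 1313 ± 49.6 CPM (0.86 ± 0.1, adjusted p = 1.55e-07), with a difference from P14 of 0.74 ± 0.152, adjusted p = 0.032. The remaining higher genes were Chrna7, Atp8a1, Mmp14, Ltbp1, Aqp4 and Nmt2, with adjusted p from 0.0129 in Chrna7 to 0.0491 in Aqp4. The 4 with a lower effect at P21 were Masp1, a protease gene of the lectin complement pathway (-0.91 ± 0.146, adjusted p = 0.00125), Ccdc3, which encodes a secreted protein (-1.33 ± 0.265, adjusted p = 0.0311), Arhgef28, a guanine nucleotide exchange factor gene (-0.95 ± 0.202, adjusted p = 0.0474), and Fbln1, a matrix fibulin gene (-0.69 ± 0.145, adjusted p = 0.0474). Them4, Vcan, Adamts5, Tnc, Nid2 and Masp1 were called in every alternative fit, and the other 10 were lost in at least 1. The count of 16 was 9 without P14 GR-Con replicate 3, Con2, Con4 or KO2, and 10 without KO3. It was 8 and 7 without P14 GR-KO replicates 1 and 2, 25 without KO1, 43 without P14 GR-KO replicate 3, and 37 with DESeq2. Between P21 and P28 in the dark the effect differed for 1 gene (0.00585% of those tested), Tnc, which was lower at P28 (0.00585%) and whose rise was 0.63 ± 0.11 at P28 (-0.88 ± 0.155, adjusted p = 0.0397 for P28 minus P21), and this was called in 3 of the 16 fits that left out 1 library, those without KO3 or P28 GR-Con replicates 1 or 2, and otherwise had an adjusted p of 0.0632 to 0.204. At P28 its level was 285 ± 31.7 CPM in GR-Con and 441 ± 20.3 in GR-KO.

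**Figure D5:**
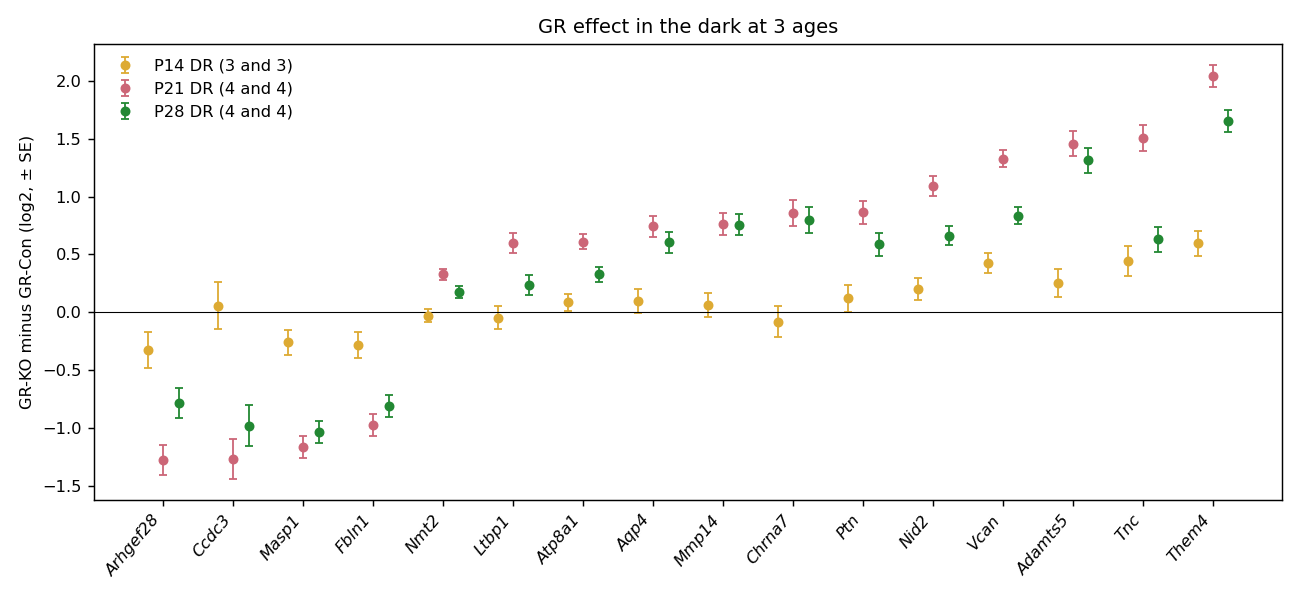
Log2 fold change of GR-KO against GR-Con in dark-reared mice at P14 (yellow), P21 (red) and P28 (green) for the 16 genes whose effect differed between P14 and P21, with bars for 1 SE. The 4 genes at the left fell at P21 and the 12 others rose, from 0.33 in Nmt2 to 2.04 in Them4, and at P14 Them4 and Vcan were the 2 that passed the test.

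The genes that fell in GR-KO included many that rise between P14 and P21 in controls. Between P14 and P21 in NR GR-Con libraries, none of which entered the dark comparison, 207 of the 407 genes called lower in GR-KO were called higher with age (50.9%, against 6.53% of all genes tested) and 10 were called lower (2.46% against 7.12%). Of the 735 called higher in GR-KO, 192 were called lower with age (26.1% against 7.12%) and 31 higher (4.22% against 6.53%). The median change with age was 0.439 for the genes called lower and -0.159 for those called higher, on the log2 scale. Etnppl rose with age by 4.81 ± 0.423, Ccnd3 by 2.07 ± 0.238 and Fam107a by 1.14 ± 0.157, while Fabp7 changed by -2.16 ± 0.192, Igsf1 by -2.51 ± 0.329 and Tnc by -1.24 ± 0.129. Not all strong changes of GR-KO had such a counterpart. Hopx, Myo3b and Them4 changed with age by -0.071 ± 0.135, 0.039 ± 0.165 and -0.11 ± 0.11 (adjusted p = 0.778, 0.909 and 0.552), and Pla2g3, lower in GR-KO, was itself lower at P21 than at P14 (-1.27 ± 0.17, adjusted p = 2.22e-06). Rpe65, higher in GR-KO, was higher with age (1.48 ± 0.261, adjusted p = 0.000117).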

How the data were processed

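V1 tissue of 2 mice was pooled per library, 80000 DRAQ5- and GFP-positive nuclei were sorted, and 10 ng of RNA was made into stranded total RNA libraries. The deposited values are raw read counts per gene: per the study's methods the authors aligned reads to mm10 with STAR and counted them over UCSC refGene genes with featureCounts of Subread, and the strand setting was not given in the sources used here. Genes that lie within another gene mostly had no counts, 682 of 809 (84.3%) within a gene on the opposite strand and 1054 of 1102 (95.6%) on the same strand, against 1661 of 22304 (7.45%) elsewhere, so that a low level of such a gene is no measure of its expression. Names and positions of 25145 of the 25239 genes were matched to RefSeq annotation of GRCm38.p6.

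Counts of all 40 libraries were fitted with 12 group means in edgeR 4.0.16 (limma 3.58.1, R 4.3.3) by the quasi-likelihood test after filterByExpr and TMM scaling, with Benjamini-Hochberg adjustment over the 17106 genes tested. Genes were called at an adjusted p below 0.05 and an absolute log2 fold change above 0.1 for GR, above 0.3 for age, and at the adjusted p alone for interactions. The ± of a log2 fold change is its standard error and that of a level its SD. Lists were described by counts and medians. The members, the lists and the comparisons were chosen with earlier results of these data known. Genes named were Nr3c1, the 15 called genes per direction with the largest change among those of at least 5 CPM without overlap of the groups, up to 5 called members per direction of each list, the 5 maturation markers, called genes of the interactions and called markers of other cells, and the remaining names, including all of those not called, were chosen after their values were seen. Replicates differed by more than sampling noise in every pair within a group (chi-square over degrees of freedom 8.21 to 47.4). Alternatives were DESeq2 1.42.0, its size factors, no filter, a replicate block, the 8 libraries alone, the 4 groups of each interaction alone, leaving out each library or the 20 most abundant genes, a test against a minimum fold change, cell type covariates, thinning to one depth and, chosen after seeing the data, a gene length covariate. The pipeline was tested on simulated data. A result on 1 called gene is not reported here.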

Additional observations from a re-analysis of the deposited data

Results flagged for a closer look

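Each of 139 genes named above with values was examined in both groups of 4 libraries for a single library set apart, by the gap to its nearest neighbour over the range of the group. Of 278 groups 11 (3.96%) held such a library, where chance alone gives about 1 in 20. In GR-Con, replicate 2 read 45.1 CPM for Alk against 32.8 to 34.6 in the other libraries, 355.7 for Egfr against 312.7 to 319.6, and 5.19 for Spry1 against 4.88 to 4.90. Replicate 4 of GR-Con read 15.01 CPM for Fabp7 against 17.7 to 17.9, and 63.2 for Ttr against 0.358 to 2.86. In GR-KO, replicate 4 read 166 CPM for Aldoc against 187 to 189.5, 58.9 for Hopx against 50.3 to 50.7, and 284 for Nr3c1 against 270.2 to 272. Replicate 1 of GR-KO read 28.02 CPM for Col27a1 against 29.1 to 29.3, 3.02 for Plin4 against 4.18 to 4.35, and 40.2 for Slc13a3 against 28.5 to 30.4. In each of these genes except Ttr the groups did not overlap with that library included.

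The effect of GR loss in the dark differed between ages by the interaction test for 16 genes. At P21 it exceeded that at P14 by 1.45 on the log2 scale for Them4, 1.20 for Adamts5, 1.06 for Tnc, 0.94 for Chrna7, 0.90 for Vcan, 0.89 for Nid2, 0.74 for Ptn, 0.70 for Mmp14, 0.65 for Aqp4, 0.65 for Ltbp1, 0.52 for Atp8a1 and 0.36 for Nmt2. It was lower by the signed difference of -1.33 for Ccdc3, -0.95 for Arhgef28, -0.91 for Masp1 and -0.69 for Fbln1. For Tnc the effect at P28 minus that at P21 was -0.88.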

How the results depend on the processing

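Directions of the 162 genes that the naming rule gave did not reverse under any alternative run. Other called genes named above, such as Plin4, Nfkbia and Mt1, were not followed singly in the alternatives. The 1142 genes called at P21 DR (735 higher, 407 lower) became 2031 (1170 and 861) when the 8 libraries were fitted alone, 744 to 1292 (416 to 859 and 319 to 433) on leaving out single libraries, and from 836 to 1413 in the other fits, with DESeq2 at 1413 and a test against a minimum change of 0.1 at 836. Over the 162 genes that the naming rule gave, 120 calls were kept in every fit, 42 were lost on leaving out at least 1 library and 16 under another setting. Medians of 17 of the 39 lists changed sign in some fit, all with a size of at most 0.12. The count for rearing was 0, or 2 with DESeq2 and 0 to 2 on leaving out single libraries, that for P21 against P14 was 16, or 37 with DESeq2 and 7 to 43, and that for P28 against P21 was 1, or 0 to 1. Scaling by DESeq2 size factors moved the median of all genes by -0.00636, and leaving out the 20 most abundant genes by -0.0148.

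With the replicate number as a block the count was 1264 (824 higher and 440 lower). The numbers share no animal, and the deviations of same-numbered libraries correlated over genes at 0.0265, 0.0313, 0.014 and -0.0889, so that the samples were taken as unpaired. The correlations across numbers ran from -0.0651 to 0.0932, and not every library correlated best with its own number. Of the genes named in the report and followed in the alternatives, the calls lost under the block were those of Nr3c1 (adjusted p = 0.0674) and Ttr (0.126). Among the differences between P14 and P21, the calls lost were those of Aqp4 (0.0616), Arhgef28 (0.0587), Ccdc3 (0.0826), Fbln1 (0.0826), Mmp14 (0.0775) and Nmt2 (0.156). Counts of members called moved by over 1.5 times under the block to 1 lower for immature glia genes, 2 higher for phospholipid, 4 higher for cholesterol, 2 lower for collagen, 4 higher for cadherin, 3 lower for axon guidance and 1 lower for ependymal genes.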

Other observations

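Some of the gene lists had calls at other ages in the dark too, in libraries of their own. At P14 DR 0.0351% of all genes were called higher and 0.24% lower, and at P28 DR 1.02% and 1.82%. Of the 5 maturation markers 4 were called lower at P14 DR (median log2 fold change -1.07) and 5 at P28 DR (-1.04). Glucocorticoid-induced genes had 2 of 24 called lower at P14 DR with a median of -0.452, and 11 lower and 1 higher at P28 DR with a median of -0.561. Immature glia genes had 2 of 20 called higher at P14 DR and 4 at P28 DR. The lists of matrix proteases, collagens, axon guidance, integrins, TGF-beta and Wnt genes and synapse-regulating genes had no member called higher at P14 DR, with medians from -0.0487 to 0.0465. Lists of this size would rarely hold a call at the P14 share of 0.0351%. Of the 32 matrix proteases and inhibitors 2 were called lower at P14 DR. In NR GR-Con libraries between P14 and P21, where 6.53% of all genes were called higher and 7.12% lower, 12 glucocorticoid-induced genes were called higher and 1 lower, 8 glucose and glycogen genes higher and 1 lower, and 14 of 20 immature glia genes lower.

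Among the genes that fell, the spread of control libraries exceeded that of knockout libraries for a larger share than among all genes tested. Over genes with at least 5 CPM in both groups, the coefficient of variation was larger in GR-Con than in GR-KO for 189 of 313 genes called lower (60.4%), against 4369 of 11146 genes tested (39.2%). The medians over the 313 genes were close, 8.56% in GR-Con and 8.22% in GR-KO. The coefficient was also larger in GR-Con for 10 of 18 glucocorticoid-induced genes tested (medians 12.4% and 9.89%) and for 8 of 12 glucocorticoid-induced genes called lower (66.7%), whose median coefficient of variation was 13.8% in GR-Con and 8.52% in GR-KO. Among the 313 genes the highest GR-Con library was replicate 2 for 129 and replicate 4 for 100, and replicates 1 and 3 for 53 and 31, whereas over all genes tested the counts were 2795, 2331, 3090 and 2930 for replicates 1 to 4. Fkbp5, Zbtb16, Tsc22d3, Lrrc8c, Prom1 and Cdh19 had their highest values in GR-Con replicates 2 and 4. Values of corticosterone in these animals were not used here.

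Chromosome 18, which carries Nr3c1, had 36 of 428 tested genes called higher (8.41%), Nr3c1 itself among them, against 4.3% of all genes. It had 17 called lower (3.97%), against 2.38% of all genes and 4.33% on chromosome 15. Within 5 Mb of Nr3c1 6 of 84 genes were higher, at 5 to 10 Mb 5 of 51, at 10 to 20 Mb 4 of 77 and further away 20 of 215. The share within 5 Mb was thus smaller than that beyond 20 Mb.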
